A study of Mus musculus with 10 samples.

Results

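Stellate cell and extracellular matrix genes were followed in the liver of mice deficient in TAK1/TR4, an orphan nuclear receptor encoded by Nr2c2. The set holds 56 genes in 6 roles, namely 13 collagens, 15 matrix glycoproteins, 10 matrix proteases and their inhibitors, 3 lysyl oxidases, 9 stellate cell markers, and 6 genes of transforming growth factor beta (TGF-beta) ligands, receptors and a target. Members were found by the gene name that the array files give to each non-control probe, taking a current or an older symbol. All 56 members had a probe, out of 27670 named genes on the array, and 51 members were bright enough to be tested, out of 15809 genes. Lamb1 appears in the files as Lamb1-1, and Ctgf is now called Ccn2.

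The knockout group (KO) comprised 5 arrays of liver total RNA from TAK1 knockout mice, and the wild-type group (WT) comprised 5 arrays of liver total RNA from wild-type mice. Both groups were 1 year old and of strain C57BL/6. The study concerned obesity-linked inflammation, fatty liver and insulin resistance in the knockout. No diet, sex, treatment or promoter is given in the labels, nor is the deleted part of the gene. Nor do the labels say whether the RNA on different arrays came from different mice; the p-values therefore cover the spread among these RNA samples, which may be technical. Arrays are named by group and replicate number, KO1 to KO5 and WT1 to WT5.

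Hepatic stellate cells lie between hepatocytes and the sinusoidal endothelium and store vitamin A as retinyl esters. On injury they can turn into contractile, myofibroblast-like cells that secrete fibrillar collagen, with TGF-beta among the strongest known drivers. Scar matrix is stiffened by lysyl oxidases, which cross-link collagen and elastin, and is turned over by metalloproteinases that tissue inhibitors (TIMPs) hold in check.

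Each array feature is a 60-base probe, and the value of a gene is the signal of 1 such probe. The 5 probes shown are those of the members that passed the test described below, with the coordinates that the array files give on mouse build mm7. The Fbln2 probe is at chr6:91354450-91354509, the Bgn probe at chrX:68879864-68879923, the Ctgf probe at chr10:24349402-24349461 and the Adamts9 probe at chr6:92861199-92861258, listed on the minus strand. The Lamb3 probe spans 2532 bases of the genome, chr1:192893546-192896077, although the probe itself has 60 bases. No genome was used here to place the probes in exons or introns.
Fbln2: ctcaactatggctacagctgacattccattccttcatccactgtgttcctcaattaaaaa
Bgn: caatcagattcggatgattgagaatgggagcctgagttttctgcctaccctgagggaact
Lamb3: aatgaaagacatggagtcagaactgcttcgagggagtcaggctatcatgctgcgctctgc
Adamts9: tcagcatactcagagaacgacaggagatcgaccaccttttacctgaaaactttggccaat
Ctgf: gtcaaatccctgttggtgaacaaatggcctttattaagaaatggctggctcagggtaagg

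Values are log2 signal relative to the 75th percentile of each array, so a value of 0 is the level of that percentile and levels are compared between arrays only, never between probes. The 75th percentile signal lay between 950.3 and 1344 on the 10 arrays, and 51.04% to 62.4% of probes were well above background. KO2 stood apart from the other KO arrays on the first 2 principal components. KO4 stood apart on the second, on the opposite side (-41.0, with KO2 at 47.7 and the other KO arrays at -15.8 to -6.8). The correlation of array pairs over all genes was 0.965 to 0.988 within KO and 0.988 to 0.994 within WT. KO1 to KO3 shared slide 2 with WT5, KO4 and KO5 each had a slide, and WT1 to WT4 lay on slide 1. KO4 was the only array scanned on a later day. Genotype and slide can therefore be told apart only within slide 2, which holds 1 WT array. A probe at the Nr2c2 locus is named AK039370 in the files (chr6:92237812-92237871, listed on the minus strand). It was above background on 0 KO arrays and on 5 WT arrays and was at least 5.41-fold lower in KO. That bound sets the WT mean against the lowest signal above background on the KO arrays. Both probes named Nr2c2, listed on the plus strand, were above background on all 10 arrays. They differed by 0.36 ± 0.13 and 0.44 ± 0.11 (KO minus WT, ± SE). In a limma fit over all kept probes the adjusted p was 0.144 and 0.043.

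KO and WT were compared with a limma fit over all 15809 genes, and a gene is said to have changed where its Benjamini-Hochberg adjusted p over all genes was under 0.05. Fbln2, Ctgf, Adamts9 and Bgn rose in KO, and Lamb3 fell. These 5 of 51 tested members compare with 5.91% of all genes tested that changed. The 4 that rose compare with 2.44% of all genes, and the 1 that fell with 3.48%. The fibrillar collagens, the stellate cell markers, the TGF-beta ligands and both TGF-beta receptors had no member that changed. Liver RNA is a mixture, so a difference in the number of cells of a type and a difference in RNA per cell cannot be told apart.

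Differences ran from -1.29 for Lamb3 to 1.44 for Fbln2, and 42 of 51 members had a positive difference, against 51.9% of all genes. The median difference of the members was 0.20, beside 0.01 for all genes tested. Within slide 2 these medians were 0.21 and -0.02, and without KO2 they were 0.16 and 0.02. Scaling by the array median moved both by a similar amount, to 0.10 for the members and -0.09 for all genes, and without scaling they were 0.31 and 0.12. Every KO array lay above every WT array for 4 members (Fbln2, Bgn, Timp3 and Adamts9), beside 4.19% of all genes, and below for 1 member (Lamb3), beside 5.43%. Together 5 members had groups that did not overlap, beside 9.61% of all genes. At an unadjusted p under 0.05, 16 of 51 members differed, beside 3751 of all genes (23.7%). Within slide 2, where limma called 2 genes in all, none of the 5 members passed the test (3 members at an unadjusted p under 0.05, beside 4.43% of all genes), although all 5 kept their direction there. With slide as a fixed block 35 genes and 0 members passed (8 members unadjusted, beside 9.90% of all genes).

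**Figure D1:**
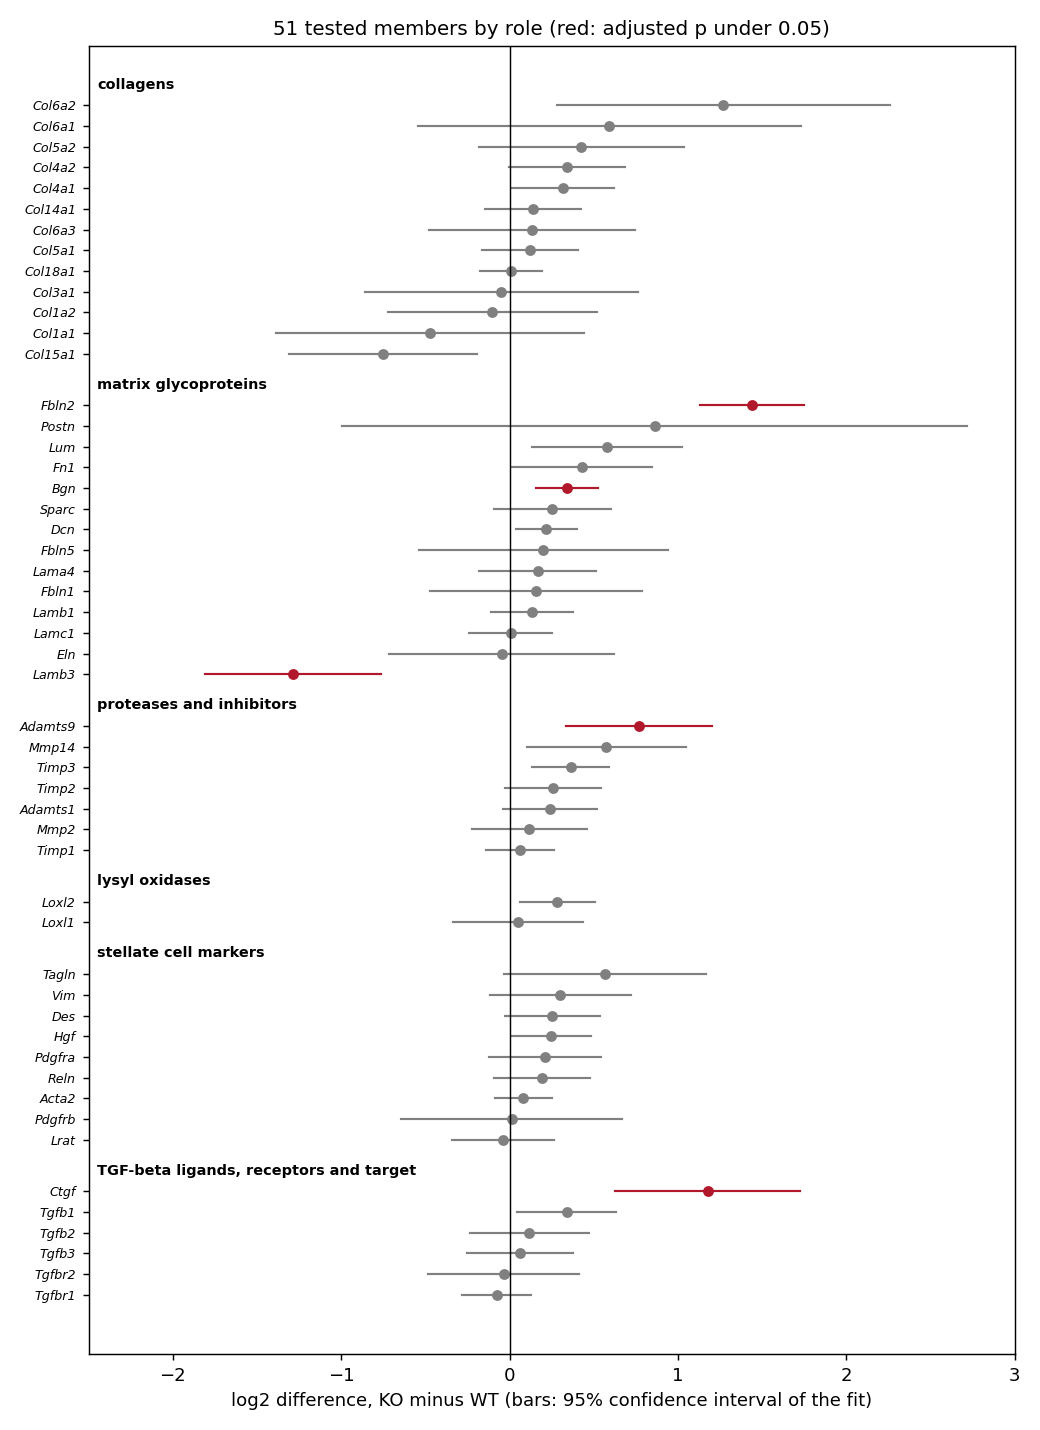
Log2 difference (KO minus WT, horizontal axis) of the 51 tested members, in blocks by role, with bars for the 95% confidence interval of the limma fit and red for an adjusted p under 0.05. The 5 red points are Fbln2, Bgn, Ctgf and Adamts9 to the right of 0 and Lamb3 to the left, and most grey intervals cross 0.

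Among collagens, none of 13 members changed, 9 had a positive difference and the median was 0.13, or 0.06 without KO2 and 0.21 within slide 2. The subunits of collagens I and III, which make up the fibrils of scar tissue, had differences close to or below 0. Col1a1, the alpha1 chain of collagen I, was at -0.71, 1.23, -0.26, -0.44 and -0.59 on KO1 to KO5 and at -0.04, 0.29, 1.32, -0.43 and 0.46 on WT1 to WT5. KO2 and WT3 stood high in their groups, and the groups overlapped. The difference was -0.47 ± 0.41 (95% interval -1.39 to 0.44, adjusted p = 0.524 in the limma fit), and -0.82 without KO2.

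Col1a2 and Col3a1 had the same high arrays. Col1a2, the alpha2 chain of collagen I, was at 1.00, 2.29, 1.51, 1.30 and 1.31 on KO arrays and at 1.29, 1.44, 2.36, 1.11 and 1.72 on WT arrays. Col3a1, the chain of collagen III, was at 0.98, 2.86, 1.36, 1.24 and 1.15 on KO arrays and at 1.12, 1.63, 2.31, 1.13 and 1.62 on WT arrays. For both genes KO2 was the highest KO array and WT3 the highest WT array. Col1a2 differed by -0.10 ± 0.28 (95% interval -0.72 to 0.52) and Col3a1 by -0.05 ± 0.36 (95% interval -0.86 to 0.76). These intervals leave room for a change of more than 0.5 in either direction. Within slide 2 the differences were -0.37 for Col1a1, -0.11 for Col1a2 and 0.11 for Col3a1.

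Col4a1 and Col4a2 encode the main chains of basement membrane collagen IV, and both had positive differences that did not pass the test. Col4a1 was at -0.62, -0.13, -0.13, -0.38 and -0.80 on KO arrays and at -0.84, -0.55, -0.73, -0.77 and -0.76 on WT arrays. KO2, KO3 and KO4 lay above all WT arrays, while KO1 and KO5 lay among them. The difference was 0.32 ± 0.14 (adjusted p = 0.193), and a second Col4a1 probe differed by 0.42 ± 0.11 (adjusted p = 0.062 over all probes). Col4a2 differed by 0.34 ± 0.16 (adjusted p = 0.214). Within slide 2 the differences were 0.47 for Col4a1 and 0.52 for Col4a2.

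Col6a2 and Col15a1 had the largest differences among the collagens, in opposite directions, and neither passed the test. Col6a2, a chain of the beaded-filament collagen VI, was at -3.64, -1.26, -3.00, -1.97 and -3.51 on KO arrays and at -3.88, -4.02, -3.29, -4.38 and -4.14 on WT arrays. KO2 and KO4 were the highest arrays, and KO1 and KO5 lay below WT3. Col6a2 was dim, above background on 5 KO arrays and 4 WT arrays. A second Col6a2 probe, above background on 3 KO arrays and 2 WT arrays, was not kept. The difference of Col6a2 was 1.27 ± 0.44 (adjusted p = 0.124). Its partner chain Col6a1 differed by 0.59 ± 0.51 with KO2 and by 0.05 without it. Col15a1, a collagen of basement membrane zones, was at -2.83, -3.44, -3.60, -3.81 and -3.53 on KO arrays and at -1.996, -2.53, -3.36, -2.75 and -2.81 on WT arrays. KO2 to KO5 lay below all WT arrays and KO1 did not, and the difference was -0.75 ± 0.25 (adjusted p = 0.108, or 0.0497 without KO1, which passes the threshold). The remaining collagens Col5a1, Col5a2, Col6a3, Col14a1 and Col18a1 had differences of 0.01 to 0.43. Within slide 2 Col6a2 differed by 1.51 and Col15a1 by -0.48.

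Among matrix glycoproteins, 14 of 15 members were tested, 2 rose, 1 fell, 12 had a positive difference and the median was 0.21. Fbln2 encodes fibulin-2, which binds elastic fibres and basement membranes. It was at -0.48, -0.70, -0.17, -0.18 and -0.44 on KO arrays and at -2.05, -1.44, -1.97, -1.88 and -1.83 on WT arrays. The groups did not overlap and lay well apart. Mean signal was -0.39 ± 0.23 in KO and -1.83 ± 0.24 in WT (SD, n = 5 each), a 2.72-fold rise (log2 difference 1.44 ± 0.14, adjusted p = 0.00091 in the limma fit, exact permutation p = 0.0079, the smallest that 5 against 5 arrays can give). The difference was 1.38 within slide 2, and the call was kept without each array in turn.

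Lamb3, the beta3 chain of laminin-332, an epithelial basement membrane protein, fell in KO. It was at -2.53, -3.83, -2.93, -3.05 and -2.58 on KO arrays and at -1.71, -1.63, -1.98, -1.80 and -1.35 on WT arrays. The groups did not overlap, and KO2 was the lowest array. Mean signal was -2.98 ± 0.52 in KO and -1.70 ± 0.24 in WT (SD, n = 5 each), 2.44-fold lower in KO (log2 difference -1.29 ± 0.23, adjusted p = 0.016 in the limma fit, exact permutation p = 0.0079). The difference was -1.75 within slide 2, and the call was kept without each array in turn, with a highest adjusted p = 0.049. It was lost with the replicate number as a block (adjusted p = 0.057 in that limma fit). The other laminin chains, Lama4, Lamb1 and Lamc1, differed by 0.17 ± 0.15, 0.13 ± 0.11 and 0.01 ± 0.11.

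Bgn encodes biglycan, a small proteoglycan that binds collagen and TGF-beta, and rose by a small amount. It was at -1.12, -0.97, -0.98, -1.03 and -1.08 on KO arrays and at -1.61, -1.38, -1.26, -1.40 and -1.23 on WT arrays. The groups did not overlap, but the lowest KO array and the highest WT array lay close together. The rise was 1.27-fold (log2 difference 0.34 ± 0.08, adjusted p = 0.041 in the limma fit, exact permutation p = 0.0079) and 0.21 within slide 2. Leaving out any single array other than KO1 ended the call, with a highest adjusted p = 0.103, and so did median, quantile and no scaling and normexp background correction. The call also ended with no background filter and with the replicate number as a block. A second Bgn probe was not well above background on any array.

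The other small leucine-rich proteoglycans, Dcn (decorin) and Lum (lumican), had positive differences of 0.22 ± 0.08 and 0.58 ± 0.20 (adjusted p = 0.148 and 0.122), and Lum passed the test without WT3. Fn1, which encodes fibronectin, the early scaffold of scar matrix, differed by 0.43 ± 0.19 (adjusted p = 0.196), and its 2 other probes by 0.56 and 0.57. KO2 had 5.43 for Fn1 and the next KO array 4.63. Postn, which encodes periostin, had 4.40 on KO2, next to -0.68 to 0.07 on the other KO arrays and -0.33 to 0.06 on WT arrays, so that its difference of 0.86 ± 0.83 was -0.06 without KO2. Eln, the elastin gene, was above background on 3 KO arrays and 4 WT arrays and differed by -0.05 ± 0.30. Fbln1, Fbln5 and Sparc, the last the gene of a collagen-binding secreted protein, had differences of 0.16 to 0.25. Thbs1, thrombospondin-1, which can activate latent TGF-beta, was above background on 1 KO array and 0 WT arrays and was not tested.

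**Figure D2:**
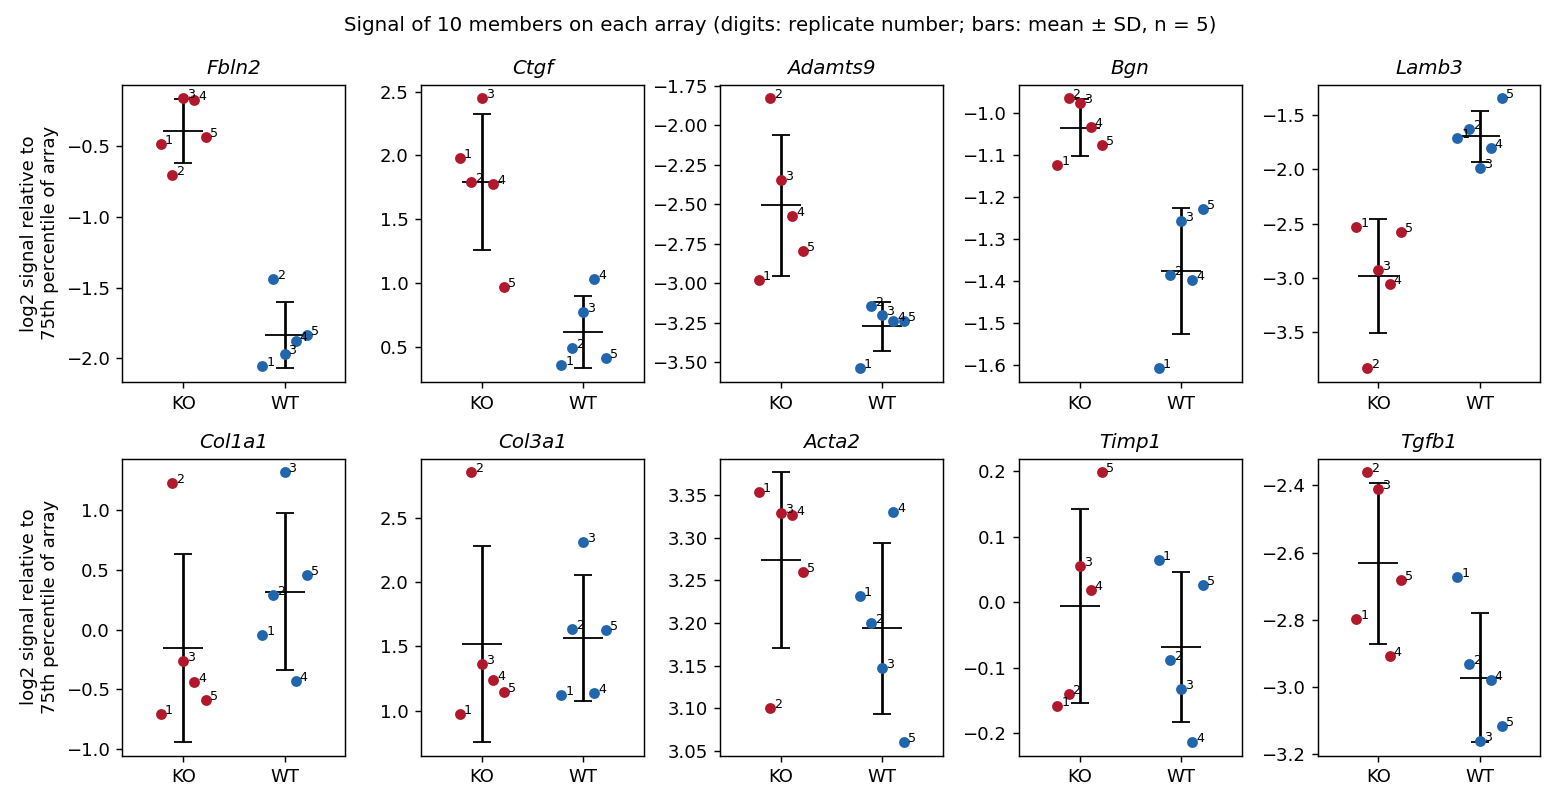
Log2 signal relative to the 75th percentile of the array (vertical axis, own range in each panel) for the 5 members that changed (upper row) and 5 that did not (lower row), with 5 KO arrays in red left of 5 WT arrays in blue, replicate numbers as digits and bars for mean ± SD. Fbln2, Adamts9, Bgn and Lamb3 have groups that do not overlap, KO5 of Ctgf lies below WT4, and in the lower row the groups overlap in every panel.

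Of the 10 proteases and inhibitors, 7 were tested, 1 rose, all 7 had a positive difference and the median was 0.26. Adamts9, a secreted protease that cleaves the proteoglycans versican and aggrecan, was at -2.98, -1.83, -2.35, -2.57 and -2.80 on KO arrays and at -3.54, -3.15, -3.20, -3.24 and -3.24 on WT arrays. The groups did not overlap, and KO2 was the highest array. The rise was 1.70-fold (log2 difference 0.77 ± 0.19, adjusted p = 0.048 in the limma fit, exact permutation p = 0.0079) and 0.85 within slide 2. The call ended without any 1 of 8 arrays (all but KO1 and KO2), with a highest adjusted p = 0.108, and under median, quantile and no scaling. It also ended with no background filter, with the replicate number as a block and with every kept probe fitted on its own. The 2 other Adamts9 probes were above background on 3 and 1 KO arrays and on 0 WT arrays.

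Timp3, the inhibitor that binds to the matrix itself, was at 1.55, 1.85, 1.85, 1.66 and 1.57 on KO arrays and at 1.17, 1.52, 1.46, 1.37 and 1.15 on WT arrays. Its groups did not overlap, the difference was 0.36 ± 0.10, and the adjusted p was 0.068 (exact permutation p = 0.0079). Mmp14, a membrane-bound collagenase that activates other metalloproteinases, was at 2.67, 3.58, 2.82, 2.52 and 2.29 on KO arrays and at 2.45, 2.17, 2.25, 2.05 and 2.09 on WT arrays. Only KO5 lay within the WT range, and the difference was 0.57 ± 0.21 (adjusted p = 0.142). Timp1, an inhibitor that rises in activated stellate cells, was at -0.16, -0.14, 0.05, 0.02 and 0.20 on KO arrays and at 0.06, -0.09, -0.13, -0.21 and 0.03 on WT arrays. Its groups overlapped, and the difference was 0.06 ± 0.09 (95% interval -0.14 to 0.26). Within slide 2 the differences were 0.61 for Timp3, 0.93 for Mmp14 and -0.11 for Timp1.

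Timp2, the gelatinase gene Mmp2 and the protease gene Adamts1 differed by 0.26 ± 0.13, 0.12 ± 0.15 and 0.24 ± 0.12. Mmp13, the main interstitial collagenase of rodents, was not well above background on any of the 10 arrays. Mmp9, a gelatinase of leukocytes, and Mmp12, the macrophage elastase, were each above background on 0 KO arrays and 1 WT array. No difference is given for these 3 genes.

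Of the lysyl oxidases, Lox was above background on 1 KO array and 0 WT arrays and was not tested. Loxl2, which acts on collagen IV, was at -1.09, -0.62, -0.87, -0.97 and -0.90 on KO arrays and at -1.34, -1.01, -1.07, -1.22 and -1.22 on WT arrays. All KO arrays but KO1 lay above all WT arrays, and the difference was 0.28 ± 0.10 (adjusted p = 0.130). Loxl1, which acts on elastin, was at -2.82, -2.20, -2.33, -2.26 and -2.75 on KO arrays and at -2.83, -2.35, -2.12, -2.78 and -2.54 on WT arrays, and the difference was 0.05 ± 0.17 (95% interval -0.33 to 0.43). Within slide 2 Loxl2 differed by 0.37 and Loxl1 by 0.09.

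None of the 9 stellate cell markers changed, 8 had a positive difference and the median was 0.21. Acta2, smooth muscle alpha-actin, the standard mark of an activated stellate cell, was at 3.35, 3.10, 3.33, 3.33 and 3.26 on KO arrays and at 3.23, 3.20, 3.15, 3.33 and 3.06 on WT arrays. The groups overlapped, and the difference was 0.08 ± 0.08 (95% interval -0.09 to 0.25, adjusted p = 0.562). A second Acta2 probe differed by 0.31 ± 0.22 (adjusted p = 0.433 over all probes). Lrat, the enzyme that makes the stored retinyl esters and a mark of the quiescent cell, was at 1.07, 1.17, 0.91, 0.57 and 0.89 on KO arrays and at 0.59, 1.04, 0.96, 1.17 and 1.04 on WT arrays. The difference of Lrat was -0.04 ± 0.14 (95% interval -0.34 to 0.26). Within slide 2 Acta2 differed by 0.20 and Lrat by 0.01.

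The cytoskeletal markers had positive differences that did not pass the test. Tagln, the actin-binding protein transgelin, was at 1.64, 2.71, 2.02, 2.55 and 2.18 on KO arrays and at 0.76, 1.91, 1.92, 1.68 and 1.98 on WT arrays. KO1 lay within the WT range and WT1 below all others, and the difference was 0.57 ± 0.27 (adjusted p = 0.232), or 0.14 within slide 2. A second Tagln probe differed by 0.16 ± 0.16 (adjusted p = 0.601 over all probes), or -0.01 within slide 2. Des, the intermediate filament protein desmin, was at -3.21, -2.63, -3.04, -2.98 and -3.08 on KO arrays and at -3.46, -3.45, -3.14, -3.06 and -3.12 on WT arrays. The difference of Des was 0.25 ± 0.13 (adjusted p = 0.251). Vim, vimentin, was at 1.90, 2.58, 2.25, 1.66 and 1.83 on KO arrays and at 1.45, 1.78, 2.16, 1.73 and 1.59 on WT arrays, and the difference was 0.30 ± 0.19 (adjusted p = 0.364). Within slide 2 Des differed by 0.16 and Vim by 0.65.

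Hgf, hepatocyte growth factor, which stellate cells supply to hepatocytes, was at -1.40, -0.91, -1.07, -0.90 and -0.93 on KO arrays and at -1.30, -1.13, -1.25, -1.37 and -1.39 on WT arrays. KO1 was the lowest of all 10 arrays and the other 4 KO arrays lay above all WT arrays. The difference was 0.25 ± 0.11 (adjusted p = 0.193) and 0.26 within slide 2, and it passed the test without KO1. A dimmer Hgf probe differed by 0.47 ± 0.11 (adjusted p = 0.040 over all probes), and another by 0.20 ± 0.19. The platelet-derived growth factor receptors Pdgfra and Pdgfrb differed by 0.21 ± 0.15 and 0.01 ± 0.29, and Reln, the secreted glycoprotein reelin, by 0.19 ± 0.13.

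Of the TGF-beta ligands, none changed. Tgfb1, the main profibrotic ligand, was at -2.80, -2.36, -2.41, -2.91 and -2.68 on KO arrays and at -2.67, -2.93, -3.16, -2.98 and -3.12 on WT arrays. WT1 stood above the other WT arrays and the groups overlapped. The difference was 0.34 ± 0.13 (adjusted p = 0.160) and 0.59 within slide 2. Tgfb2 and Tgfb3 differed by 0.12 ± 0.16 and 0.06 ± 0.14. The receptor Tgfbr1 was at 0.67, 0.47, 0.28, 0.75 and 0.56 on KO arrays and at 0.60, 0.72, 0.61, 0.56 and 0.61 on WT arrays. It differed by -0.08 ± 0.09 (95% interval -0.28 to 0.13), and the receptor Tgfbr2 by -0.03 ± 0.20 (95% interval -0.48 to 0.41).

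Ctgf, connective tissue growth factor, a secreted matricellular protein known as a target of TGF-beta and of the YAP and TAZ coactivators, rose in KO. It was at 1.98, 1.79, 2.45, 1.77 and 0.97 on KO arrays and at 0.36, 0.49, 0.77, 1.03 and 0.41 on WT arrays. KO1 to KO4 lay above all WT arrays, and KO5 lay below WT4. Mean signal was 1.79 ± 0.53 in KO and 0.61 ± 0.28 in WT (SD, n = 5 each), a 2.26-fold rise (log2 difference 1.18 ± 0.25, adjusted p = 0.026 in the limma fit, exact permutation p = 0.016). The difference was 1.66 within slide 2. The call was lost without KO4, WT1, WT2 or WT5, with a highest adjusted p = 0.071. It was also lost with no background filter and with the replicate number as a block.

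Among the further probes of members, 19 were kept, and 17 of them shared the sign of the probe used for their gene. The other 2, of Col5a1 and Col18a1, had an unadjusted p above 0.05.

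Fbln2 and Adamts9 are both on chromosome 6 close to the mutated gene, at 0.86 and 0.65 Mb on either side of the Nr2c2 probes. Within 2 Mb of these probes 5 of 32 genes tested changed (15.6%), 3 of them higher in KO and 2 lower. These counts include Fbln2 and Adamts9, without which 3 of 30 changed. Both counts, and that within 20 Mb, also hold AK039370, the probe at the Nr2c2 locus itself, among the genes lower in KO. Within 20 Mb, with both included, 20 of 194 changed (10.3%). On the rest of chromosome 6, 48 of 604 genes changed (7.95%), and over all genes 5.91%. Col1a2, the remaining member on chromosome 6, lies 87.7 Mb away. The KO arrays all carry the mutated allele and the DNA linked to it, so loss of the receptor and an effect of the linked region cannot be told apart for Fbln2 and Adamts9.

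The members' level differed from array to array within each group. The median deviation of the 51 members from the WT mean was 0.05, 0.43, 0.36, 0.19 and 0.03 on KO1 to KO5. For each WT array, set against the other 4, it was -0.21, 0.08, 0.16, -0.07 and -0.01 on WT1 to WT5. KO2 and KO3 were the high KO arrays, and KO1 and KO5 lay within the WT range.

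KO2 was the highest of the 10 arrays for 19 of 51 members (37.3%, against 17.4% of all genes) and KO3 for 17 (33.3%, against 14.3%). For collagens alone the deviation was -0.07, 0.71, 0.16, 0.03 and -0.07 on KO1 to KO5 and -0.37, 0.08, 0.69, -0.17 and 0.03 on WT1 to WT5. WT3 had the highest WT value for 9 of 13 collagens. The spread of the collagens between arrays of one group was thus wider than their median difference between groups.

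**Figure D3:**
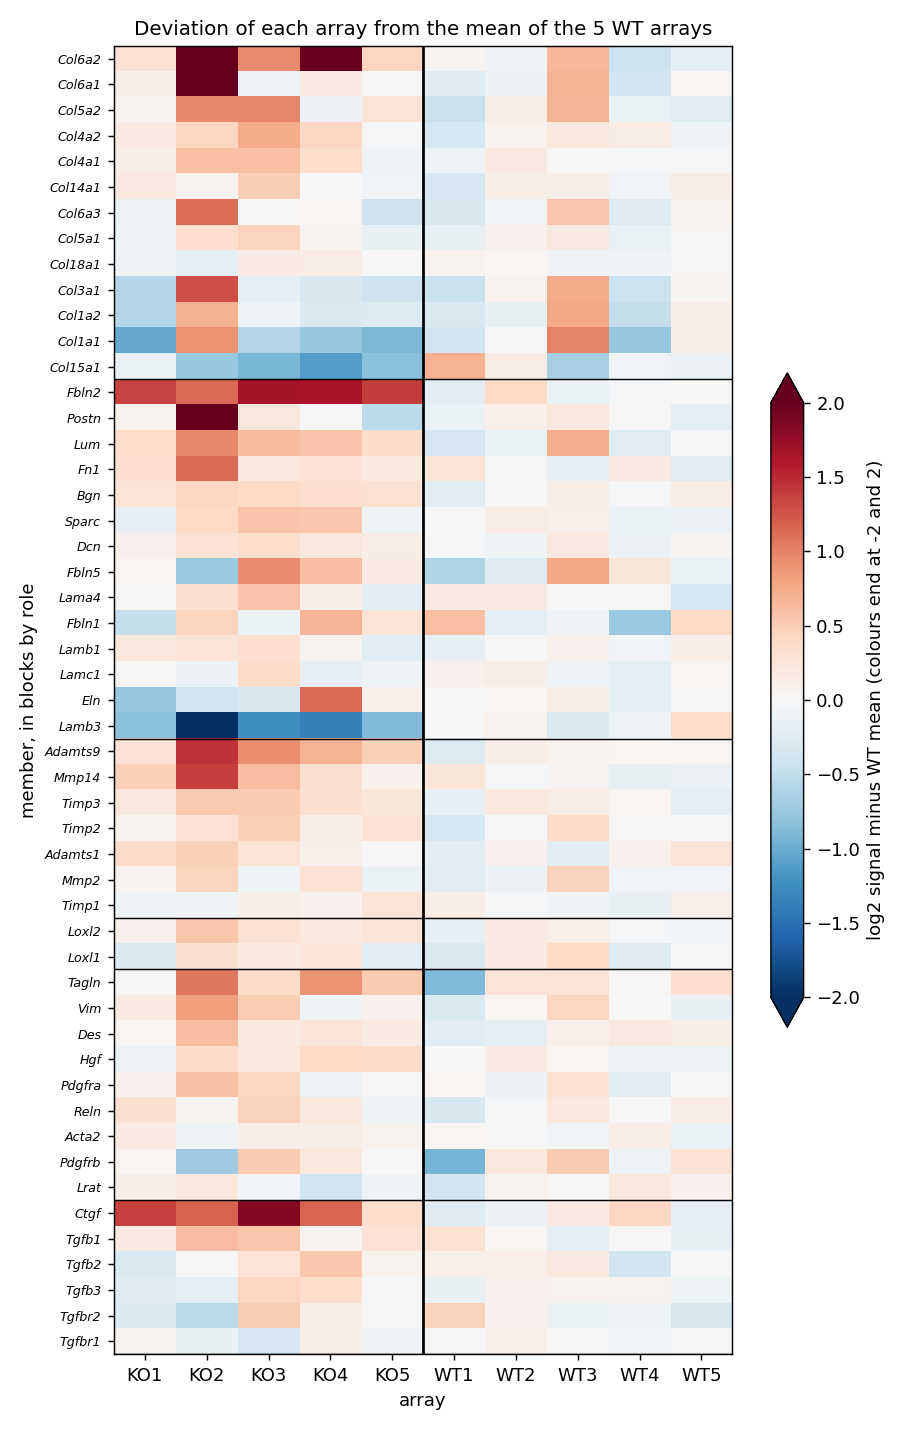
Log2 signal of each of the 51 tested members (rows, in blocks by role) on each array (columns, KO1 to KO5 left of WT1 to WT5), minus the mean of the 5 WT arrays, with red above and blue below it. KO2 and WT3 are red across the fibrillar collagens and collagen VI, while Fbln2 is red and Lamb3 blue across all 5 KO arrays.

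The surrounding matrix and TGF-beta pathway was covered by 133 further genes, of which 102 were tested. Among them 1 rose and 3 fell, beside 2.44% and 3.48% of all genes. A positive difference was seen in 76, beside 51.9% of all genes, and the median was 0.13. All KO arrays lay above all WT arrays for 5 genes, beside 4.19% of all genes, and below for 3, beside 5.43%. Mmp19, a metalloproteinase of basement membrane and matrix proteins, was at -0.85, -0.86, -0.99, -0.95 and -0.80 on KO arrays and at -0.34, -0.33, -0.29, -0.14 and -0.36 on WT arrays. The groups stood apart and the spread was small, and the fall of 0.60 ± 0.07 on the log2 scale (adjusted p = 0.0019 in the limma fit) was kept without each array in turn.

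Of the matrix receptors, Itgb3, an integrin subunit that binds fibronectin and vitronectin, rose by 0.56 ± 0.09 (adjusted p = 0.0087). Sdc1, the cell-surface proteoglycan syndecan-1, fell by 0.44 ± 0.08 (adjusted p = 0.015), and Itgb5, another partner of the integrin alphaV chain, fell by 0.29 ± 0.07 (adjusted p = 0.041). The calls of Itgb3 and Sdc1 were kept without each array in turn, and that of Itgb5 was lost without any 1 of 9 arrays. Within slide 2 the differences were -0.54 for Mmp19, 0.40 for Itgb3, -0.39 for Sdc1 and -0.29 for Itgb5.

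No gene of the remaining lists passed the test. The closest was Inhba, the activin A subunit, a ligand of the TGF-beta family. It was at 1.93, 2.24, 0.76, 0.85 and 1.57 on KO arrays and at 0.62, -0.02, 0.40, 0.42 and 0.45 on WT arrays, with no overlap, and its difference was 1.096 ± 0.28 (adjusted p = 0.050004, which did not pass the threshold) and 1.19 within slide 2. Pcolce2, an enhancer of procollagen processing, differed by 0.77 ± 0.20 (adjusted p = 0.052). The basement membrane laminin chain Lamc3 and the proteoglycan Prelp differed by 0.66 ± 0.23 and 0.28 ± 0.11 (adjusted p = 0.119 and 0.160).

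Markers of some other liver cell types also differed between the groups, and their part in the members' differences was not tested. Of 18 sinusoidal endothelial markers 3 rose (Flt4, Dnase1l3 and Fcgr2b), beside 2.44% of all genes. The median difference of the 18 was 0.40, and the median deviation per array was 0.18 to 0.80 on KO arrays and -0.41 to 0.23 on WT arrays. Of 17 tested Kupffer cell and macrophage markers 2 rose (Fcgr3 and Cd163), beside the same 2.44%. Of the 17, 12 had a positive difference and 5 a negative one, the lowest at -1.08. The median difference of the 17 was 0.32, and the deviation was -0.43 to 0.99 on KO arrays and -0.45 to 0.49 on WT arrays. These 5 calls were lost without 1 array for 5 (Flt4), 3 (Dnase1l3), 9 (Fcgr2b), 9 (Fcgr3) and 7 (Cd163) of the 10 arrays. KO3, high for the members, was the highest array of both lists. KO2, the highest array for the members, was the lowest KO array of the endothelial list, at 0.18, and had 0.42 for the macrophage list. On KO1 and KO5, where the members were at 0.05 and 0.03, the macrophage list was at -0.43 and 0.51. WT5, the only WT array on slide 2, was the lowest array of both, and the medians within slide 2 were 0.74 and 0.64.

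Other stellate cell markers, 14 of 17 tested, had a median of 0.23, with deviations of 0.09 to 0.42 on KO arrays and -0.21 to 0.09 on WT arrays. Of them 1, Prnp, fell (-0.50 ± 0.13, adjusted p = 0.049), beside 3.48% of all genes. Leaving out any single array but KO2 and KO3 ended that call (adjusted p up to 0.118). Gfap, also on that list, was above background on 1 KO array and 0 WT arrays and was not tested. Portal fibroblast and mesothelial markers (9 tested, median -0.04), vascular smooth muscle markers (5 tested, median 0.10), cholangiocyte markers (9 tested, median 0.16), hepatocyte markers (13 tested, median -0.04) and blood leukocyte markers (9 tested, median 0.17) had no gene that changed. In that order, the genes with the smallest p were Fbln7 (0.43 ± 0.25), Smtn (0.20 ± 0.09), Krt23 (-1.71 ± 0.50), Pck1 (0.46 ± 0.13) and Cd4 (0.45 ± 0.23). Their adjusted p in the limma fit was 0.318, 0.217, 0.078, 0.059 and 0.266. Leukocyte markers were at -0.67 on KO1 and 0.85 on KO2, and -0.23 to 0.35 on WT arrays.

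**Figure D4:**
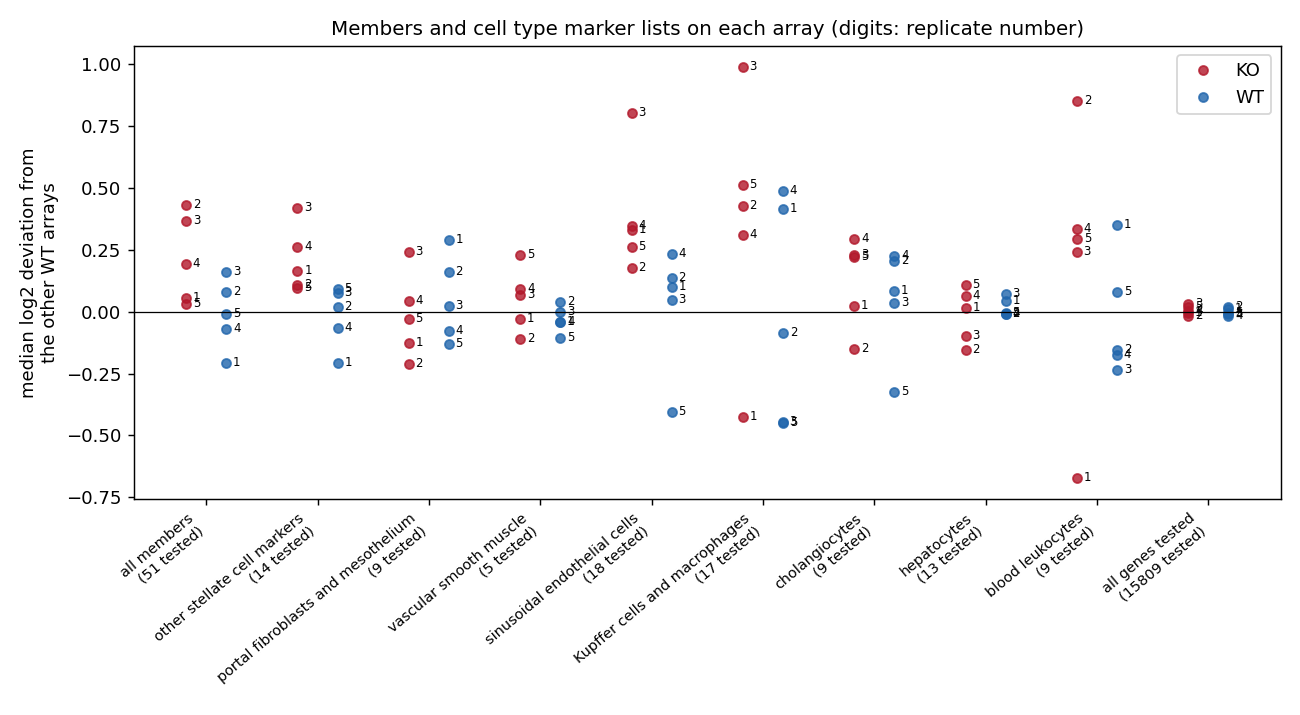
Median log2 deviation of each list from the WT arrays (vertical axis; a WT array is set against the other 4), with 1 point per array, KO in red left of WT in blue, and replicate numbers as digits. The 51 members reach 0.43 on KO2 and 0.36 on KO3, the endothelial and macrophage lists are highest on KO3, and all genes tested stay near 0.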

How the data were processed

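Liver RNA labelled with Cy3 was hybridised to Agilent 1-colour arrays, 5 KO and 5 WT. Per the file headers, the authors' deposited intensity values came from Feature Extraction 9.5.1.1 (9.5 in the submitters' processing notes), background-subtracted and detrended within each array, with coordinates on mm7. The series table that was deposited beside them holds identical intensities. The flags above background came with the deposited scanner files.

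Each array's 75th percentile over non-control probes was subtracted from log2 intensity, with no pseudocount. Outlier spots were set to missing and spots of a probe averaged. Of 41174 probes, 23266 were kept, being flagged well above background on 4 or more of the 5 arrays in a group. The brightest kept probe stood for a gene. RefSeq tables of a later assembly gave current names only (22951 probes by accession, 6659 by current symbol, 3109 by older symbol, 8455 left as named in the files). For 4 tested members some arrays of a group were dim (Fbln1, Tgfb2, Eln and Col6a2). No member had missing or saturated values.

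KO and WT were compared with limma 3.58.1 in R 4.3.3 (lmFit and eBayes, genotype as the only term). P-values were adjusted by Benjamini-Hochberg over all 15809 genes. Permutation tests were exact over 252 splits and two-sided. The script was tested on simulated data. Members, lists and the rule for named genes were chosen with earlier results of these data known. The rule gave per-array values for changed members, the 3 members of each role with the smallest p, the 2 with the largest difference, members above background on at least 4 arrays of one group and at most 2 of the other, and Col1a1, Col1a2, Col3a1, Timp1, Mmp13, Acta2, Des, Lrat, Tgfb1 and Ctgf. Each context list was represented by up to 3 changed genes, or otherwise by the gene with the smallest p. The alternatives, 24 in all, covered background correction, scaling, filters, probes, moderation, array weights, slide, replicate number and each array left out. The number of arrays limits the precision.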

Additional observations from a re-analysis of the deposited data

Results flagged for a closer look

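Among 102 pairs of a member and a group, 9 held an array that lay far from the other 4 of its group by Dixon's test, which flags about 1 in 20 groups by chance. Of these, 5 were on KO2. On that array Postn was at 4.40 (next KO array 0.07), Fn1 at 5.43 (4.63), Col6a1 at -0.11 (-2.69), Col3a1 at 2.86 (1.36) and Col1a1 at 1.23 (-0.26). WT3 stood high for Lum, at 1.65 (next WT array 0.90), and for Mmp2, at -2.72 (-3.24). WT1 stood low for Adamts9, at -3.54 (-3.24), and for Tagln, at 0.76 (1.68). What sets these arrays apart was not tested.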

How the results depend on the processing

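Of 1220 values of members under the 24 alternatives, 1169 kept their side of the threshold, 46 lost it and 5 gained it. In 72 of them, over 18 members that had not changed, the sign was opposite. None of the 5 called members changed sign. The 935 changed genes (385 higher, 550 lower) became 711 with median scaling (153 higher, 558 lower), 470 with no scaling (314 higher, 156 lower), 247 with no filter, 1441 with slide as a random block, 35 with slide as a fixed block, 2 within slide 2, and 297 to 1191 without each array in turn. The 5 changed members became 3 with quantile normalisation, 3 with median scaling, 3 with no scaling, 2 with no filter, 0 with slide as a fixed block (8 at an unadjusted p under 0.05, beside 9.90% of all genes), 0 within slide 2 (3 unadjusted, beside 4.43%), and 2 to 7 without each array in turn. The smallest count, 2 (Fbln2 and Lamb3), came without WT1, WT2, WT5 or KO4, and the largest without KO1. The 4 changed genes of the further matrix and TGF-beta lists became 2 with no scaling, 8 with array weights, 9 with slide as a random block, 0 with slide as a fixed block, 0 within slide 2, and 3 to 8 without each array in turn. The random block had an estimated correlation of -0.09. With the replicate number as a block, 166 genes, 1 member (Fbln2) and 1 gene of the further lists changed. Deviations of same-numbered arrays from their group means had an r of -0.21 to 0.04 across genes. The labels do not say whether same-numbered arrays were paired, and these correlations cannot settle it. Slide 2 leaves 3 KO arrays and 1 WT array, so its fits have few degrees of freedom. The causes of the other shifts were not tested. Dim probes limit Lox, Thbs1, Mmp9, Mmp12 and Mmp13.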
